A study of Mus musculus with 6 samples.

Results

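Aminoacyl-tRNA synthetases are the enzymes that join each amino acid to its matching tRNA. The 38 genes that encode them were taken by name from the 56748 genes of the table, as 21 genes for cytosolic enzymes and 17 for mitochondrial enzymes, by a rule that uses names and no measured value. All 38 passed the filter on low values, 10 normalized counts as the mean of the libraries, and were among the 15704 genes tested. They were measured by RNA-seq in primary airway basal cells from the tracheas of wild-type mice after 4 days of culture. In one group of 3 libraries the cells were given UK-5099, which blocks the carrier that brings pyruvate into mitochondria. In the other group of 3 libraries they were given a mixture of 3 inhibitors, Y-27632, which blocks the kinase ROCK, and A8301 and DMH-1, which block TGF-beta and BMP type I receptors. No untreated library was part of the comparison, so a difference is always one treatment against the other. The labels are silent on Y-27632 in the medium of the UK-5099 cells, and on the animals or cultures behind each replicate. The p-values therefore measure only the spread between these libraries, which may be technical.

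A synthetase first activates its amino acid with ATP and then transfers it to the tRNA, and the charged tRNA is carried to the ribosome by an elongation factor. Mitochondria translate the few proteins of their own genome with a separate set of tRNAs, most of which are charged by enzymes encoded by separate nuclear genes. The cytosolic glycyl and lysyl enzymes, Gars and Kars, also serve mitochondria, and mitochondrial glutaminyl-tRNA is made by amidation of misacylated glutamyl-tRNA. Several cytosolic synthetases are held with scaffold proteins in a large multisynthetase complex. Many cytosolic synthetase genes are known targets of ATF4, the transcription factor that is translated when eIF2 alpha is phosphorylated by kinases that sense amino acid shortage and other stress.

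Promoter sequence was available for 28 of the 38 genes from the RefSeq promoter table of build GRCm38.p6, which is not the build of the authors' table. Each runs from 250 bases before to 50 bases after the annotated start. Genes without an entry in the table included Cars, Hars, Hars2, Lars, Nars, Pars2, Rars, Vars and Wars. The core of the composite element bound by ATF4 with C/EBP proteins, TGATGNAA searched on both strands, was found in 5 of 14 cytosolic and 0 of 14 mitochondrial promoters, and in 3.97% of all 32851 promoters in the table. The 5 genes were Aars, Gars, Iars, Tars and Yars. The promoters of Tars (chr15:11399609-11399908, minus strand), Gars (chr6:55037751-55038050, plus strand) and Aars (chr8:111033592-111033891, plus strand) are printed 5′ to 3′, because Tars and Gars were higher with UK-5099 and Aars was not called. The capitals mark the matches, which read as the motif on the opposite strand.
Tars: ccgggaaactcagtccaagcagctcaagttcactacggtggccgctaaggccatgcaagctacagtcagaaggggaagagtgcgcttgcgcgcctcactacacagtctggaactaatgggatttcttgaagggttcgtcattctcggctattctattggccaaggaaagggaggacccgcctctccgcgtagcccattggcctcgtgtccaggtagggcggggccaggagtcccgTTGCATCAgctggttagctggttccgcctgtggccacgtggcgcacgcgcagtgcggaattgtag
Gars: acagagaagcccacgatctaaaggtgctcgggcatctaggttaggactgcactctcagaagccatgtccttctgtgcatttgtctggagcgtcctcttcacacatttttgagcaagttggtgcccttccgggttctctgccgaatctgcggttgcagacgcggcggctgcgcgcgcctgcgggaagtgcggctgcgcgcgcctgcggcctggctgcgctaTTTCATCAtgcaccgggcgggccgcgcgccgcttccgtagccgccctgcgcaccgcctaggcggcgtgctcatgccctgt
Aars: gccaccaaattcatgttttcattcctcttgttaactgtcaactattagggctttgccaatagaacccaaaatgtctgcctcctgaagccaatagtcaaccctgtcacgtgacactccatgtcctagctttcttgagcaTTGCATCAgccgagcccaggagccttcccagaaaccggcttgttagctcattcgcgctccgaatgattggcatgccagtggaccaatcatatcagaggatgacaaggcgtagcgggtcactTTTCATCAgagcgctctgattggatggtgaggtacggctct
Of the 5 cytosolic genes with this motif 2 were called higher, and of the 9 cytosolic genes whose window had no match 6 were called higher. Over all genes tested, 27.2% were called higher. Cytosolic genes without an entry, such as Lars and Hars, are in neither count. The call of Gars was lost when each library was centred on its median gene. The counts are small, and a link between the motif and the calls was not tested.

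The ETS core, CCGGAAG on either strand, was found in 9 of the 28 promoters and in 8.86% of all promoters. These 9 were Cars2, Farsa, Gars, Kars, Mars1, Mars2, Rars2, Sars and Sars2. The promoter of Rars2 (chr4:34614707-34615006, plus strand), a mitochondrial gene with a rise of more than 1.5-fold, is printed 5′ to 3′ with its match in capitals.
Rars2: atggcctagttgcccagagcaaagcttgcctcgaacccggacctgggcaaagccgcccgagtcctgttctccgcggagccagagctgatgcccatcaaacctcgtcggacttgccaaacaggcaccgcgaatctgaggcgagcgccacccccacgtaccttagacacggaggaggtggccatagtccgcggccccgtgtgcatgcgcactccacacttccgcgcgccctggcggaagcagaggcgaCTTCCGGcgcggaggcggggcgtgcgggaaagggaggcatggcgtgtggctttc
The E-box CACGTG, bound by MYC with MAX, was found in Aars, Ears2, Farsb, Iars and Tars, 5 of 28, and in 7.15% of all promoters. The palindromic NRF1 core was found in 0 of 28 and in 0.971% of all promoters. A match is a description of these letters only, and no binding was measured here.

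Most synthetase genes differed between the treatments, and more of them were higher with UK-5099 than lower. By limma with Benjamini-Hochberg adjustment at 0.05 over all genes tested, 22 of 38 were higher with UK-5099, 5 were lower and 11 were not called. Over all genes tested, 27.2% were called higher and 26.6% lower, 53.8% in either direction, so a call by itself was common in this comparison. The same shares stand beside the counts of calls of each subgroup, class and related list below. The median log2 fold change (UK-5099 minus 3 inhibitors) was 0.19 over the 38 genes and 0.00 over all genes. The values of the groups did not overlap in 30 of the 38 genes, which is 78.9%, against 60.8% of all genes tested. The median standard error was 0.049 for the 38 genes and 0.086 for all genes tested, so the members were measured more closely. The part of this in the shares called and separated was not tested. The changes were mostly small: 3 genes, Lars and Rars2 among them, were called with a rise of at least 1.5-fold, which 10.5% of all genes showed, and none was called with a fall of that size, which 11.2% of all genes showed. In bulk RNA, fewer cells of a type and less RNA per cell cannot be told apart.

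**Figure D1:**
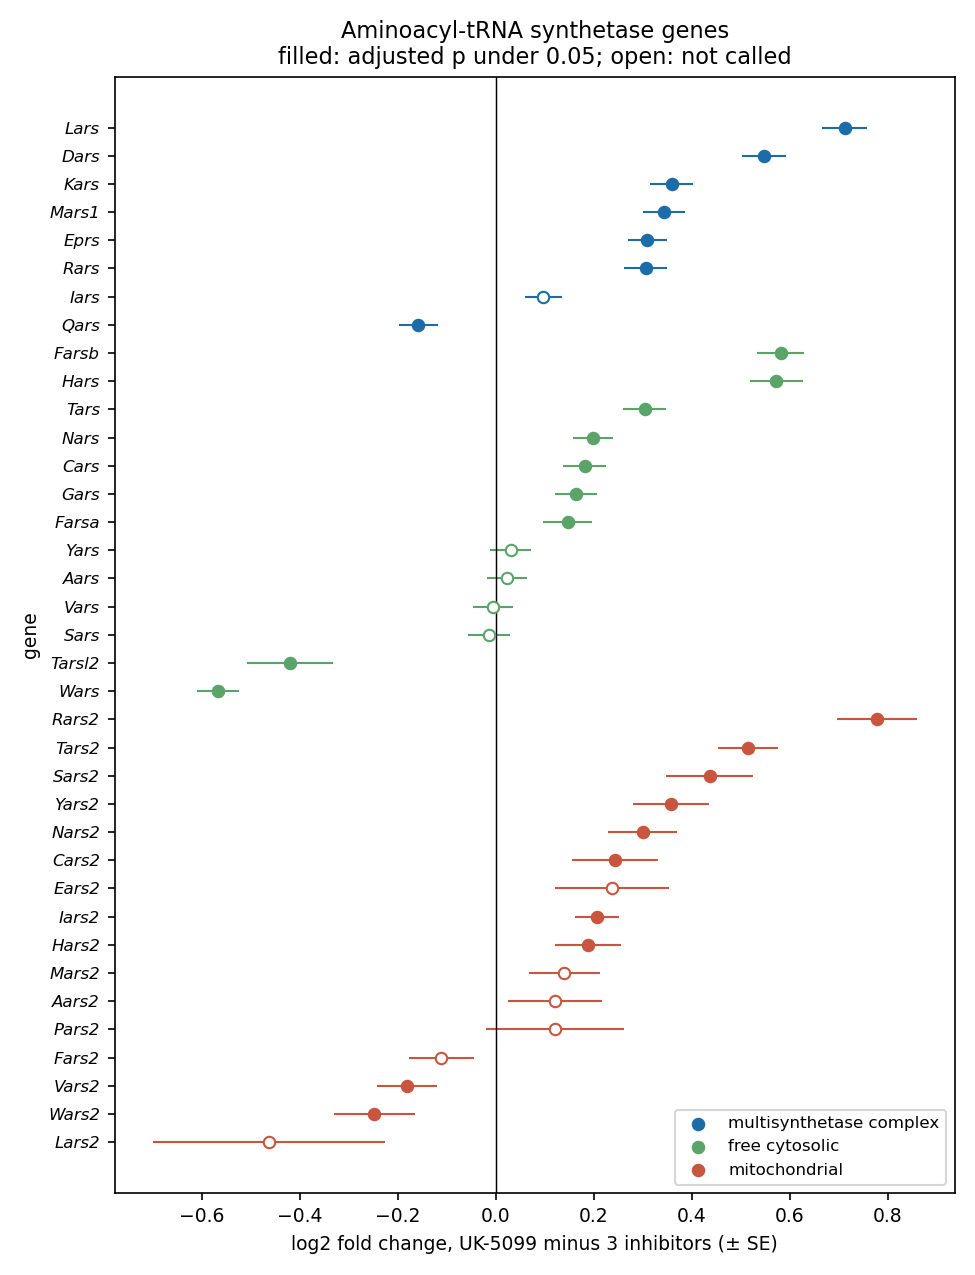
Log2 fold change of 37 of the 38 synthetase genes on the horizontal axis, UK-5099 minus 3 inhibitors, with bars for the standard error of the limma fit and filled points for called genes. Most points lie to the right of 0, among them Rars2 at 0.78 and Lars at 0.71, Wars is farthest to the left at -0.57, and the widest bar is that of Lars2.

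The cytosolic and mitochondrial sets moved alike in their counts. Of the 21 cytosolic genes 13 were higher and 3 lower, with a median log2 fold change of 0.18. Of the 17 mitochondrial genes 9 rose and 2 fell, and the median was 0.21. The size of these counts depended on the scaling of the libraries. With each library centred on its median gene, which set the median of all genes to -0.09, 10 cytosolic genes were higher and 3 lower and 7 mitochondrial genes were higher and 3 lower, while over all genes the share of calls that were higher went from 50.6% to 39.1%. Upper-quartile rescaling gave the same counts for both sets. Under these scalings Cars, Gars, Farsa, Cars2 and Hars2 were no longer called higher and Fars2 was called lower.

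Replicate libraries lay close together for nearly every member. Leaving out Lars2, the coefficient of variation over 3 libraries ran from 0.475% to 9.81% with UK-5099 and from 0.405% to 13.7% with 3 inhibitors. Lars2 stood apart at 22.2% and 45.4%.

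**Figure D2:**
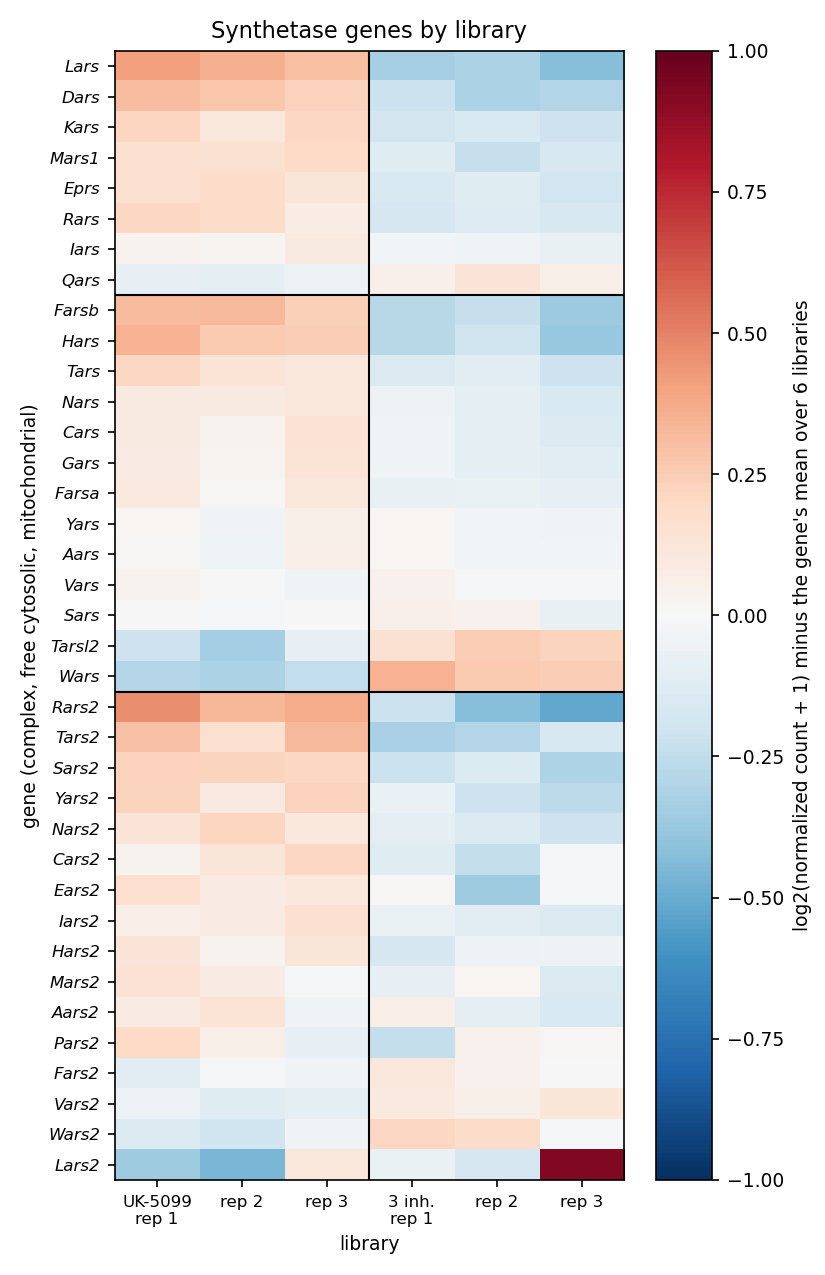
The same 37 synthetase genes in each of the 6 libraries, as log2(normalized count + 1) minus the gene's mean over the libraries, with genes in rows and libraries in columns. The 3 UK-5099 libraries are alike in most rows, and the Lars2 row is set by replicate 3.

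The 8 cytosolic synthetases of the multisynthetase complex, Eprs, Iars, Lars, Mars1, Qars, Kars, Rars and Dars, were separated between the groups in every case. Of these, 6 were higher, Qars was lower and Iars was not called, with a median log2 fold change of 0.33. Among all genes tested, 60.8% were separated in this way, 27.2% were called higher and 26.6% lower. Lars, the leucyl enzyme, which is also known as a leucine sensor upstream of mTORC1, had 10005, 9607 and 9277 normalized counts with UK-5099 and 5978, 6045 and 5607 with 3 inhibitors. All UK-5099 libraries were far above all 3-inhibitor libraries. The log2 fold change was 0.71 ± 0.05 (SE, n = 3 per group, limma adjusted p = 1.68e-07), a 1.64-fold difference.

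Dars, the aspartyl enzyme, had 2954, 2896 and 2801 normalized counts with UK-5099 and 2056, 1916 and 1950 with 3 inhibitors, with no overlap. Its log2 fold change was 0.55 ± 0.05 (SE, limma adjusted p = 1.30e-06). Kars, the lysyl enzyme of both compartments, had 3337, 3103 and 3318 against 2534, 2585 and 2483. The lowest UK-5099 library of Kars was above the highest 3-inhibitor library, and the log2 fold change was 0.36 ± 0.04 (SE, limma adjusted p = 3.17e-05). Mars1, the methionyl enzyme, which also charges the initiator tRNA, had 3404, 3374 and 3500 against 2792, 2589 and 2724. The groups were again separate, at a log2 fold change of 0.34 ± 0.04 (SE, limma adjusted p = 4.01e-05).

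Eprs, the fused glutamyl and prolyl enzyme, had 18153, 18367 and 17615 normalized counts with UK-5099 and 14601, 14882 and 14211 with 3 inhibitors. Each UK-5099 library exceeded each 3-inhibitor library, with a log2 fold change of 0.31 ± 0.04 (SE, limma adjusted p = 4.87e-05). Rars, the arginyl enzyme, had 9081, 8948 and 8293 against 7031, 7203 and 7039, also without overlap. Its log2 fold change was 0.31 ± 0.04 (SE, limma adjusted p = 1.04e-04). Iars, the isoleucyl enzyme, had 7872, 7823 and 8183 against 7532, 7487 and 7308. Its groups did not overlap, but the difference was small, 0.10 ± 0.04 (SE, limma adjusted p = 0.0525), and it passed the threshold with limma-voom on recovered reads (adjusted p = 0.0228) and with a minimum mean of 50 (adjusted p = 0.0448).

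Qars, the glutaminyl enzyme, went the other way within the complex. It had 3811, 3762 and 3858 normalized counts with UK-5099 and 4177, 4394 and 4188 with 3 inhibitors, so that all 3-inhibitor libraries were higher. The log2 fold change was -0.16 ± 0.04 (SE, limma adjusted p = 0.00539). The summed level of the 8 complex genes was 57780 ± 889 normalized counts with UK-5099 and 46437 ± 827 with 3 inhibitors (SD, n = 3 each), a ratio of 1.24. The 13 other cytosolic genes summed to 96257 ± 1582 and 90144 ± 2524, a ratio of 1.07.

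Among the 13 cytosolic synthetases outside the complex, 7 were higher, 2 were lower and 4 were not called, with a median log2 fold change of 0.15. The subunits of the phenylalanyl enzyme, a tetramer of Farsa and Farsb chains, both rose. Farsb, the beta subunit, had 3026, 3044 and 2862 normalized counts with UK-5099 and 2008, 2072 and 1888 with 3 inhibitors. All 3 UK-5099 libraries were above the others, and the log2 fold change was 0.58 ± 0.05 (SE, limma adjusted p = 1.41e-06). Farsa, the alpha subunit, had 1112, 1051 and 1123 against 991, 991 and 984, and its log2 fold change was 0.15 ± 0.05 (SE, limma adjusted p = 0.0272). The groups of Farsa did not overlap, but its call was lost in 7 of 16 alternatives, with limma adjusted p between 0.0166 and 0.344 over all of them. Leaving out any 1 of the 3-inhibitor libraries gave 0.0672 to 0.0797, and leaving out replicate 1 of UK-5099 gave 0.0835. Hars, the histidyl enzyme, had 2072, 1948 and 1929 against 1340, 1413 and 1249. The groups of Hars were well apart, at a log2 fold change of 0.57 ± 0.06 (SE, limma adjusted p = 4.70e-06).

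Tars, the threonyl enzyme, whose promoter is printed above, had 8518, 8090 and 7941 normalized counts with UK-5099 and 6657, 6839 and 6382 with 3 inhibitors. It was higher in each UK-5099 library, at a log2 fold change of 0.30 ± 0.04 (SE, limma adjusted p = 1.07e-04). Nars, the asparaginyl enzyme, had 23409, 23371 and 23773 against 21019, 20673 and 19777. The difference was small beside its high level, with a log2 fold change of 0.20 ± 0.04 (SE, limma adjusted p = 0.00155). Gars, the glycyl enzyme of both compartments, had 13604, 13093 and 14186 against 12470, 12084 and 11935. The groups of Gars did not overlap, at a log2 fold change of 0.16 ± 0.04 (SE, limma adjusted p = 0.0069), a call that was lost when the libraries were centred on the median gene (adjusted p = 0.15). The seventh to rise, the cysteinyl gene Cars, had a log2 fold change of 0.18, and its call too was lost on centring (adjusted p = 0.0831).

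The alanyl, seryl, tyrosyl and valyl genes were not called. Their log2 fold changes were 0.02 ± 0.04 for Aars, -0.01 ± 0.04 for Sars, 0.03 ± 0.04 for Yars and -0.01 ± 0.04 for Vars (SE), and their groups overlapped. None of the 4 was called under any alternative, with a lowest limma adjusted p of 0.0531 for Vars. A p that misses the threshold does not show that the levels were equal.

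Wars, the tryptophanyl enzyme, which is known to be induced by interferon-gamma, had the largest fall of the 38 genes. It had 5105, 5034 and 5292 normalized counts with UK-5099 and 7958, 7491 and 7422 with 3 inhibitors. All 3-inhibitor libraries were far above all UK-5099 libraries. The log2 fold change was -0.57 ± 0.04 (SE, limma adjusted p = 6.12e-07), a level 1.48-fold lower with UK-5099. Tarsl2, a second cytosolic threonyl enzyme, had 284, 260 and 312 against 367, 393 and 384. Its groups did not overlap, at a log2 fold change of -0.42 ± 0.09 (SE, limma adjusted p = 0.00157), so the threonyl paralogues Tars and Tarsl2 were called in opposite directions.

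Of the 17 mitochondrial synthetases, 9 were higher, 2 lower and 6 not called. Rars2, the arginyl enzyme, had 869.7, 793 and 818 normalized counts with UK-5099 and 543, 468 and 439 with 3 inhibitors. The groups of Rars2 were clearly apart, at a log2 fold change of 0.78 ± 0.08 (SE, limma adjusted p = 8.35e-06).

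Tars2, the mitochondrial threonyl enzyme, had 1400, 1277 and 1429 normalized counts with UK-5099 and 915, 931 and 1025 with 3 inhibitors. All UK-5099 values were above the 3-inhibitor range, and the log2 fold change was 0.52 ± 0.06 (SE, limma adjusted p = 2.84e-05). Sars2, the seryl enzyme, had 280.4, 278 and 275 against 206, 217 and 193, with no overlap. Its log2 fold change was 0.44 ± 0.09 (SE, limma adjusted p = 0.00139). Iars2, the isoleucyl enzyme, had 2539, 2574 and 2711 against 2320, 2257 and 2197. Its groups were separate at a log2 fold change of 0.21 ± 0.05 (SE, limma adjusted p = 0.00201).

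Among the other mitochondrial genes, those called higher included Yars2 at a log2 fold change of 0.36, Nars2 at 0.30, Cars2 at 0.24 and Hars2 at 0.19. The calls of Cars2 and Hars2 were lost in 7 and 9 of 16 alternatives. For Cars2 these included leaving out replicate 1 or 2 of 3 inhibitors (limma adjusted p = 0.0795 and 0.142) and replicate 2 or 3 of UK-5099 (0.0582 and 0.0806). For Hars2 they included leaving out replicate 1, 2 or 3 of 3 inhibitors (limma adjusted p = 0.132, 0.0641 and 0.0589) and replicate 1 or 3 of UK-5099 (0.107 and 0.0566). The methionyl, alanyl, prolyl and glutamyl genes were not called, with log2 fold changes of 0.14 for Mars2, 0.12 for Aars2, 0.12 for Pars2 and 0.24 for Ears2, which stood at 0.12 without replicate 2 of 3 inhibitors. Pars2 had the lowest mean of all members, 109.9 normalized counts, and a standard error of 0.14. Fars2, the single-chain phenylalanyl enzyme, stood at -0.11 and was not called.

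Wars2 and Vars2 were the mitochondrial genes called lower. Wars2, the tryptophanyl enzyme, had 392, 377 and 423 normalized counts with UK-5099 and 499, 492 and 427 with 3 inhibitors, so the highest UK-5099 library and the lowest 3-inhibitor library nearly met. Its log2 fold change was -0.25 ± 0.08 (SE, limma adjusted p = 0.0242). Vars2, the valyl enzyme, was at -0.18 ± 0.06 (SE, limma adjusted p = 0.0254), with groups that did not overlap. Both calls were lost when single libraries were left out. The limma adjusted p of Wars2 rose to 0.0985 without replicate 1 of 3 inhibitors, 0.0962 without replicate 2 of 3 inhibitors, 0.07 without replicate 1 of UK-5099 and 0.0639 without replicate 2 of UK-5099. That of Vars2 rose to 0.068 and 0.0896 without replicates 1 and 3 of 3 inhibitors and to 0.0637 without replicate 2 of UK-5099.

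Lars2, the mitochondrial leucyl enzyme, had the widest spread between replicates. It had 2342, 2183 and 3249 normalized counts with UK-5099 and 2863, 2666 and 5706 with 3 inhibitors. Replicate 3 was the highest of its group in both treatments, and the groups overlapped. The log2 fold change of -0.46 ± 0.24 (SE, limma adjusted p = 0.122) was not called. Without replicate 3 of 3 inhibitors it was -0.12 (limma adjusted p = 0.538), and without replicate 3 of UK-5099 it was -0.64 and called lower (limma adjusted p = 0.0162). Without replicate 2 of 3 inhibitors it was -0.66 and also called lower (limma adjusted p = 0.0494).

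The same replicate 3 libraries were compared for ribosomal RNA genes, picked once their values had been looked at. Rn18s-rs5, a locus of the cytosolic 18S ribosomal RNA, had 30727, 27388 and 31829 normalized counts with UK-5099 and 28783, 23992 and 48496 with 3 inhibitors. mt-Rnr2, the large mitochondrial ribosomal RNA, had 14196, 14580 and 17955 against 12629, 13243 and 16061. In both genes replicate 3 was the highest library of each group, as it was for Lars2. mt-Rnr1, the small mitochondrial ribosomal RNA, had 7204, 7202 and 6353 against 5095, 5454 and 6653, so its replicate 3 was the highest with 3 inhibitors but the lowest with UK-5099. The part of ribosomal RNA in the Lars2 value was not tested. The longest coding transcript of Lars2 had 0 alignments of at least 100 bases and 80% identity to mt-Rnr1 or mt-Rnr2. This covers mt-Rnr1 and mt-Rnr2 only, not Rn18s-rs5, and no exon of Lars2 outside that transcript. The sum of the 17 mitochondrial genes was 12297 ± 715 normalized counts with UK-5099 and 11822 ± 1609 with 3 inhibitors (SD, n = 3 each), a ratio of 1.04. Without Lars2 it was 9706 ± 170 and 8077 ± 152, a ratio of 1.20.

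**Figure D3:**
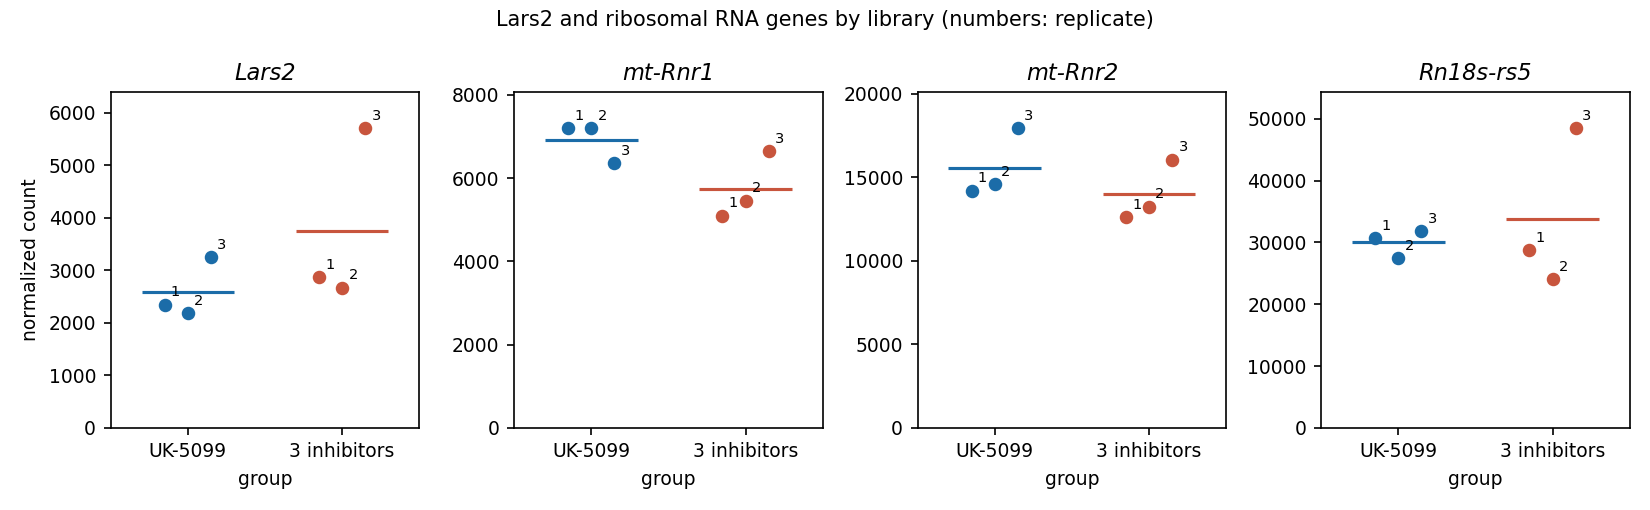
Normalized counts of Lars2, mt-Rnr1, mt-Rnr2 and Rn18s-rs5 in each of the 6 libraries, with 1 point per library labelled by its replicate number and the group mean as a bar. Replicate 3 is the top point of its group in each panel except for mt-Rnr1 with UK-5099, where it is the lowest, and the 3-inhibitor replicate 3 reaches 5706 for Lars2 and 48496 for Rn18s-rs5.

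For 17 amino acids the table held both a cytosolic and a mitochondrial synthetase gene, which make 18 pairs because Farsa and Farsb both pair with Fars2 (Eprs is paired with Ears2 for glutamate and with Pars2 for proline). Both genes were higher in 6 pairs, among them those of arginine, asparagine, histidine and threonine. Both were lower in the tryptophan pair alone. Of single genes tested, 27.2% were called higher and 26.6% lower, and no share was computed for pairs. With the main settings no pair was called in opposite directions. In 6 pairs the cytosolic gene alone was called, in 4 pairs (isoleucine, serine, tyrosine and valine) the mitochondrial gene alone, and in the alanine pair neither. Under centring and upper-quartile rescaling Fars2 was called lower while Farsb stayed higher. Lars2 was called lower in 3 of 16 alternatives, and Lars was higher in all of them. The calls of Hars2 and Wars2, in the histidine and tryptophan pairs, were lost in 9 and 5 of 16.

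In the arginine pair the log2 fold changes were 0.31 for Rars and 0.78 for Rars2, and in the threonine pair 0.30 for Tars and 0.52 for Tars2. For serine the values were -0.01 ± 0.04 for Sars and 0.44 ± 0.09 for Sars2 (SE), and for leucine 0.71 ± 0.05 for Lars and -0.46 ± 0.24 for Lars2 (SE). Whether the members of a pair differed from each other was not tested.

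**Figure D4:**
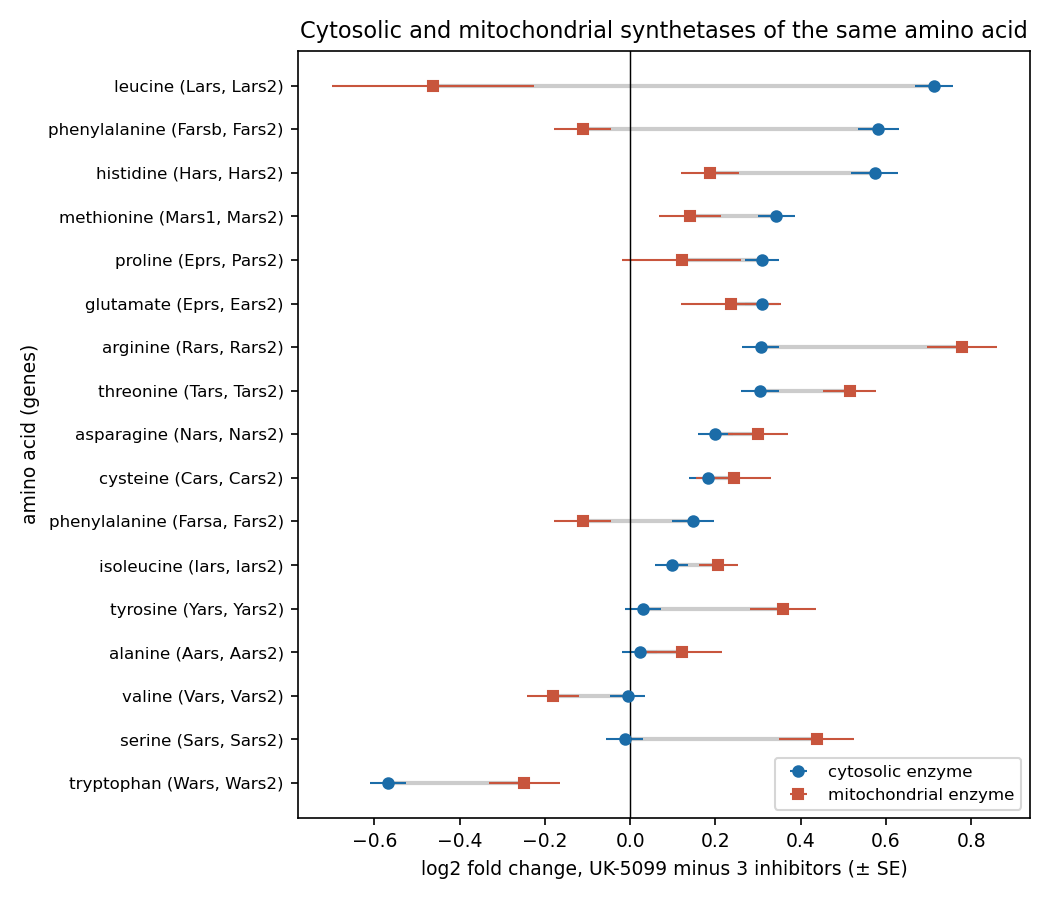
Log2 fold change (UK-5099 minus 3 inhibitors, horizontal axis, bars for standard errors) of the cytosolic gene as a circle and of the mitochondrial gene as a square, with 1 row for each pair drawn (17 of the 18) and a grey line joining them. In the arginine pair both symbols lie to the right of 0 (0.31 and 0.78), in the tryptophan pair both lie to the left (-0.57 and -0.25), and the leucine pair is the widest, with the longest bar on Lars2.

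Grouped by the catalytic fold of the enzyme, 8 of 18 class I genes were higher and 4 lower, and 13 of 19 class II genes were higher and 1 lower. Eprs has a domain of each class and was counted in neither. Median log2 fold changes were 0.16 for class I and 0.20 for class II.

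Levels were compared between genes as normalized counts per kilobase of merged exons (GRCm38 annotation, lengths only). Merged exons can be much longer than a transcript. They come to 11089 bases for Lars2 and 6932 for Tars2, whose longest coding transcripts have 3894 and 3228. The order of single genes given here holds for merged exons only, and an order by transcript length was not tested. The medians of the cytosolic groups were far above that of the mitochondrial genes, although the ranges of single genes overlapped. With UK-5099 the median level was 999 per kilobase in the complex, 1136 in the other cytosolic genes and 77.7 in the mitochondrial genes, and with 3 inhibitors it was 797, 911 and 79.5. Nars was the highest, at 5400 per kilobase with UK-5099 and 4705 with 3 inhibitors, followed by Gars at 4369 and 3900, and the library ranges of these neighbours did not overlap in either group. Rars came next with UK-5099, at 2718, above Sars at 2447, whereas with 3 inhibitors Sars at 2472 was above Wars at 2212 and Rars at 2197, whose ranges overlapped. Tarsl2, at 42.3 and 56.6 per kilobase, lay at the level of mitochondrial genes, and Farsa, at 241 and 218, lay below the highest of them. Among the mitochondrial genes, Rars2 (299) and Iars2 (294) were the highest per kilobase with UK-5099, with library ranges that overlapped, and with 3 inhibitors Lars2 (338) and Iars2 (254) were, again with overlap. Pars2 was the lowest with UK-5099 at 37.0 and with 3 inhibitors at 34.0, and in both groups its range overlapped that of Ears2, at 41.3 and 35.2.

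Some members share sequence with other genes, and whether reads were counted by strand is not given in the sources used here. Exons of 10 members overlap those of another gene that had a mean of at least 10 normalized counts in either group: Cars2, Ears2, Fars2, Farsb, Hars, Hars2, Iars2, Mars1, Tarsl2 and Yars. Hars and Hars2 lie on opposite strands and share 195 bases. Iars2 overlaps Rab3gap2 over 2034 bases, 22.9% of its exons, and Mars1 overlaps Ddit3 over 68 bases. Aars shares 1326 bases, 14.3% of its exons, with Exosc6 on the same strand. Exosc6 had a mean of 0 in both groups, and how reads of the shared bases were counted was not tested. Iars is 94.7% identical to Gm4849 over 2251 bases, although Gm4849 had a mean of 29.4 normalized counts only. The values of these members are uncertain to that extent.

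The scaffold of the multisynthetase complex rose in part with its enzymes. Of its 3 genes 2 were higher. Eef1e1 (AIMP3) had 1024, 1016 and 901 normalized counts with UK-5099 and 784, 766 and 739 with 3 inhibitors, with no overlap and a log2 fold change of 0.36 ± 0.06 (SE, limma adjusted p = 4.76e-04). Aimp1 stood at 0.22 (limma adjusted p = 0.0012), and Aimp2 at 0.19 was not called (limma adjusted p = 0.165). The amidotransferase that makes mitochondrial glutaminyl-tRNA had 2 of 3 subunit genes higher, Qrsl1 at 0.26 and Gatc at 0.18, and Gatb at 0.23 was not called.

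Of the 7 genes tested for editing, deacylation and selenocysteine charging, 4 rose and 1 fell, and the median log2 fold change was 0.34. Pstk, the kinase that phosphorylates seryl-tRNA on the way to selenocysteine, was at 0.56, and the D-tyrosyl-tRNA deacylase Dtd1 at 0.42. Ptrh2, a peptidyl-tRNA hydrolase, was at 0.44. An eighth gene of that list, Aarsd1, was below the filter.

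Genes that make tRNA were also called more often higher than lower. Of 23 genes for tRNA processing and export, 15 were higher and 3 lower, with a median log2 fold change of 0.28. Subunits of RNase P and MRP were at both ends of that list. Pop1 was at 0.94 ± 0.07 (SE, limma adjusted p = 4.80e-07), and Rpp25 was at -1.87 ± 0.17 (SE, limma adjusted p = 2.26e-06), from 46.4 ± 8.54 normalized counts with UK-5099 and 170.4 ± 8.73 with 3 inhibitors (SD, n = 3). Pop4 was at 0.52, and Ddx1, of the tRNA ligase complex, at 0.37. Of 22 genes of RNA polymerase III and its factors, 9 were higher and 4 lower, beside 27.2% and 26.6% of all genes tested. The polymerase subunit Polr3g was at 0.69, and Maf1, a repressor of the polymerase, was lower at -0.39.

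In mitochondria, 7 of 15 genes for tRNA processing and modification and 7 of 14 translation factors were higher by limma, and the others were not called. The tRNA modifying enzymes Cdk5rap1, Trmt5 and Nsun3 were at 0.60, 0.51 and 0.44. Mtrfr, a ribosome rescue factor, was at 0.73, and the ribosome recycling factor Mrrf at 0.47. Tufm, the elongation factor that carries charged tRNA to the mitochondrial ribosome, was at -0.06 and was not called. Of 8 cytosolic elongation factors 5 were higher and 2 lower. Eef1a1, the carrier of charged tRNA in the cytosol, was lower at -0.16 ± 0.06 (SE, limma adjusted p = 0.0441), the translocation factor Eef2 was lower at -0.35, and Eif5a was higher at 0.50.

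The ATF4 pathway was mixed. Of 31 of its genes outside the synthetases, 16 were higher and 9 lower, with a median log2 fold change of 0.13. Of all genes tested, 27.2% were higher and 26.6% lower, so the count of lower genes was near the common share. Atf4 mRNA had 17195, 17007 and 17292 normalized counts with UK-5099 and 13863, 13906 and 13407 with 3 inhibitors. Its groups were apart, at a log2 fold change of 0.32 ± 0.04 (SE, limma adjusted p = 2.41e-05). Slc7a11, the cystine importer, rose most in this list, from 9714 ± 286 with 3 inhibitors to 26612 ± 722 with UK-5099 (SD, n = 3), a log2 fold change of 1.45. Cth, of cysteine synthesis, was at 0.78, and asparagine synthetase, Asns, at 0.48.

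Other genes of the same list were lower, among them the growth factor gene Gdf15 at -1.10, Stc2 at -0.69 and Atf5 at -0.15. Ddit3, which encodes CHOP, was at 0.07, and the amino acid transporter genes Slc7a5 at 0.04 and Slc3a2 at 0.06, none of them called. Of 8 genes for the kinases and phosphatase of eIF2 alpha, 2 were higher and 3 lower, beside 27.2% and 26.6% of all genes tested. Eif2ak4 (GCN2), the kinase that binds uncharged tRNA, was at 0.23 (limma adjusted p = 0.0136), Eif2ak3 (PERK) at -0.72 and the phosphatase subunit Ppp1r15b at -0.53. Eif2s1, which encodes eIF2 alpha itself, was at 0.47.

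**Figure D5:**
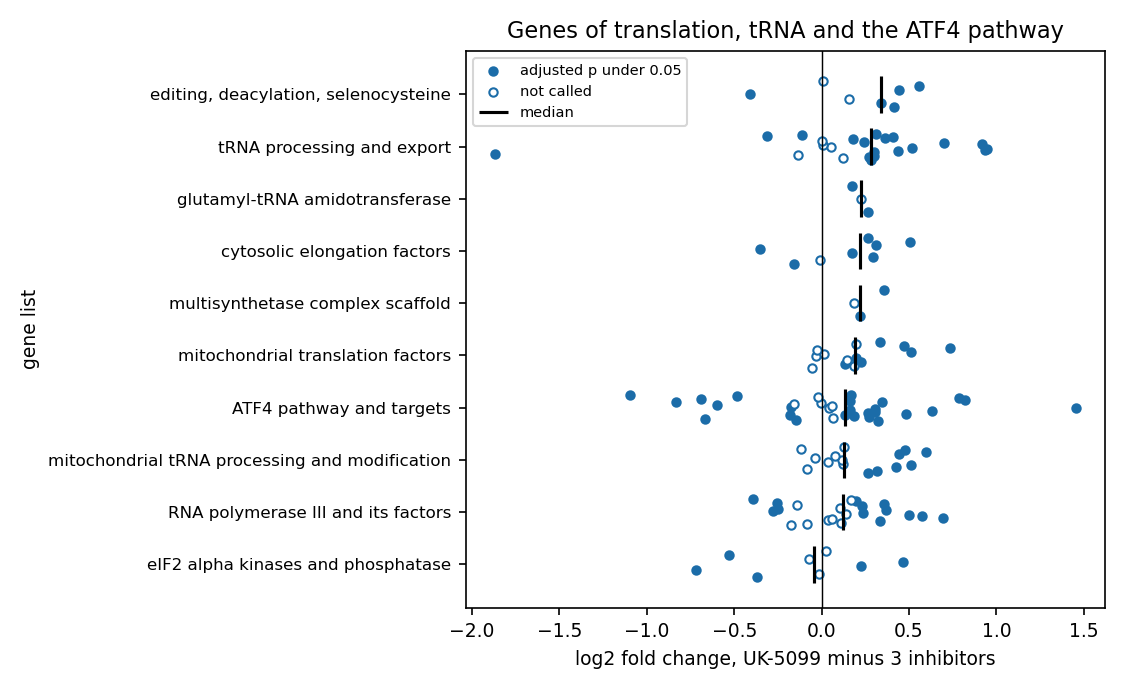
Log2 fold change (UK-5099 minus 3 inhibitors) of each tested gene of the related lists, 1 point per gene, filled where called, with the median of each list as a short black line. The medians of tRNA processing and export (0.28) and of the ATF4 list (0.13) lie to the right of 0, and the ATF4 list spreads from Gdf15 at -1.10 to Slc7a11 at 1.45.

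The libraries held 19909589 to 27037795 reads each. The basal markers Krt5 and Krt14 were detected at 39445 and 12457 normalized counts or more in group means, and 5 of 7 basal markers were higher with UK-5099 and 1 lower. All 6 squamous and hillock markers were called higher with UK-5099, with a summed level of 203430 to 218250 against 59860 to 65230 normalized counts. Krt4 of this list was at a log2 fold change of only 0.22, and its groups overlapped. The 3 secretory markers that were tested were lower, with a summed level of 1119 to 1738 over the 6 listed against 4631 to 5006. Of 5 airway epithelial markers 3 were lower with UK-5099, Epcam at a log2 fold change of -0.32, Krt8 at -0.84 and Nkx2-1 at -0.53. The 3 multiciliated markers that were tested were higher, Tubb4b at 0.31, Rsph1 at 0.81 and Cfap43 at 0.63, while Dynlrb2 was at 0 in every library. Foxj1 and Dnah5 of the same list, below the filter, had means of 0.34 and 4.27 with UK-5099 against 3.23 and 1.3. The groups overlapped for Foxj1 but not for Dnah5. Whether multiciliated cells were present was not tested. Of 2 endothelial markers tested, Vwf was lower, at 49.9 against 126.8 normalized counts, Tek was not called, and Cdh5 was at 0. No fibroblast or smooth muscle marker passed the filter, and Col1a2, Col3a1 and Lum were at 0. Of 6 leukocyte markers only Cd68 was tested, at 564.8 against 479.0 normalized counts, and it was not called. Lyz2, Csf1r and Cd79a, below the filter, had means of 0.31, 0 and 0 with UK-5099 against 13.7, 6.98 and 5.39. Ptprc and Cd3e, also below it, had means of 0.34 and 0.81 against 0.64 and 1.20. Mki67, a marker of dividing cells, was at a log2 fold change of 0.58, Xist at 0.77 and the Y-linked Ddx3y at -0.82, so the groups differed in sex-linked transcripts (all 3 genes were picked after seeing their values). The part of cell state, division and sex in the synthetase differences was not tested.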

How the data were processed

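RNA-seq of 6 libraries was compared, 3 with UK-5099 and 3 with 3 inhibitors. Per the labels' protocols, the input was 1 to 1.5 µg of total RNA and the kit was VAHTS Universal V8. HISAT2 2.1.0, DESeq2 1.36.0 and GRCm39 are named in the submitters' processing notes, while the read counter, annotation and strand setting were not given in the sources used here. In the deposited table the values have a unit other than counts, namely log2 of counts that the authors divided by a size factor, with a text mark for 0.

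These were raised back to normalized counts. Of 57107 entries 359 repeated an identifier, leaving 56748 genes. Whole reads were recovered for 99.988% to 99.992% of nonzero values per library (tolerance 0.02 reads), and ran from 19909589 to 27037795 per library. Log2(normalized count + 1) of genes with a mean of at least 10 entered limma (version 3.58.1, under R 4.3.3) with a trended prior variance, two-sided and without covariates, with Benjamini-Hochberg adjustment over 15704 genes and a threshold of 0.05. A call is an adjusted p under that threshold. Log2 fold changes are on the log2(value + 1) scale, which understates those of low genes. The branch for log values was used because the table has no raw counts. The fit was tested on simulated data with 197 of 15569 genes changed, far fewer than were called here. It recovered 56% of the 1.25-fold and 82% of the 1.5-fold changes, and 4.14% of its calls were unchanged genes. Where a symbol had several identifiers, the one with the highest mean was used.

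The values of a few genes are counted but not reported here. The members and lists were chosen with earlier results of these data known. Values per library are given in each subgroup for the 4 called members with the smallest adjusted p, the 2 with the largest mean and the main members that fell, and for Gars, Kars, Wars and Qars. From each related list, up to 4 called and 2 uncalled genes and some preset ones could be named. Farsa, Iars and Eef1a1 were added after their values were seen. The 16 alternatives changed the scaling, filter, pseudocount, variance model, test (limma-voom on recovered reads), replicate block and libraries. Stricter thresholds were applied to the counts of called genes only and are not among the 16. Motifs were searched with Python 3.11.15 in promoters from RefSeq (GRCm38.p6), and similar transcripts with BLAST 2.17.0. Coordinates of genes are not given, because the annotation at hand was of another build than the authors'.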

Additional observations from a re-analysis of the deposited data

How the results depend on the processing

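Over 16 alternatives, 28 of the 38 genes kept their call in every one, among them 20 of the 27 called genes (17 higher, 3 lower), and no called gene changed sign. The calls that changed were those of Cars, Gars, Farsa, Iars, Cars2, Hars2, Fars2, Vars2, Wars2 and Lars2. Centring and upper-quartile rescaling moved the median log2 fold change of the cytosolic genes to 0.094 and 0.096, of the mitochondrial genes to 0.119 and 0.121, and of all genes to -0.089 and -0.087. The median of all genes was 0.018 with a minimum mean of 50 and -0.054 with no filter, and ran from -0.009 to 0.014 with 1 library left out. A minimum of 1.5-fold left 1 cytosolic gene higher and 0 lower, 2 mitochondrial genes higher and 0 lower, 11 genes of the related lists higher and 7 lower, and 1646 and 1756 of all genes. The 2 mitochondrial genes called lower became 1 with no filter, 1 with no trend and 0 at an adjusted p under 0.01. With 1 library left out they ran from 0 to 3: 0 without replicate 1 of 3 inhibitors and without replicate 2 of UK-5099, 1 without replicate 3 of 3 inhibitors and without replicate 1 of UK-5099. The other counts ran from 12 to 13 and 3 to 3 (cytosolic, higher and lower), 7 to 8 (mitochondrial, higher), 60 to 72 and 17 to 26 (related lists) and 3701 to 4580 and 3569 to 4566 (all genes).

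Same-numbered libraries did not deviate together (correlations of -0.017, 0.116 and -0.0886), so the numbers were not taken as pairs. With the replicate number as a block, 13 cytosolic genes were higher and 3 lower, 8 mitochondrial genes were higher and 3 lower, and 4275 of all genes were higher and 4148 lower. Under the block Hars2 was no longer called (limma adjusted p = 0.0509) and Lars2 was called lower (limma adjusted p = 0.00118). The median coefficient of variation over replicates was 4.83% with UK-5099 and 6.19% with 3 inhibitors for the mitochondrial genes, and 3.36% and 3.13% for the cytosolic genes, and the part of depth in this was not tested. With 3 libraries per group, an exact permutation test of a single gene cannot go below p = 0.1.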

Other observations

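Wars was set beside other genes of the interferon response, which were chosen after their values were seen. Irf1 was lower with UK-5099, at 232, 202 and 225 normalized counts against 371, 319.9 and 337 with 3 inhibitors (log2 fold change -0.64, limma adjusted p = 1.32e-04). Gbp2 (0.25) was not called, and its groups overlapped. Myc, which encodes a factor that binds E-boxes, was at 0.29 (limma adjusted p = 0.00175), and Mtor, the kinase downstream of leucine sensing, was lower at -0.20 (limma adjusted p = 0.00492).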
